A study of Mus musculus with 12 samples.

Results

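The genes described here are 33 red cell genes, read in mouse granulocyte-monocyte progenitors (GMP) with and without the transcription factor RUNX1. They comprise 3 globin genes, 8 heme synthesis enzymes, 4 genes of iron uptake and mitochondrial transport, 13 genes of the red cell membrane and its skeleton, 2 carbonic anhydrases and 3 other erythroid genes. They were found by the gene name that the scanner files give each probe, and their current symbols through the accession. The 33 genes had 42 of the 39429 probes, and all 33 were among the 17905 genes tested, each by its brightest probe. Of them, 31 were well above background on all 12 arrays. The exceptions were Trim10, dim on 1 wt array, and Tmod1, which passed the filter through the RUNX1-ERt2 arrays.

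Red cells carry oxygen on hemoglobin, a tetramer of alpha and beta globin chains that each hold a heme. Heme is built from glycine and succinyl-CoA in a chain of enzymes that starts in the mitochondrion with an aminolevulinate synthase, ALAS1 in most cells and ALAS2 in erythroid cells, and ends there with ferrochelatase, which inserts iron. GMP lie on the other branch of blood formation: they give rise to neutrophils and monocytes, while red cells descend from megakaryocyte-erythroid progenitors.

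All groups carry vav-Cre, in which the Vav promoter makes Cre recombinase across the blood system. The ko group (Runx1fl/fl-Tg(vav-Cre), 4 arrays) had floxed Runx1 alleles and the wt group (Runx1+/+-Tg(vav-Cre), 4 arrays) intact ones. In the transplanted groups, bone marrow of Runx1fl/fl-Tg(vav-Cre) donors was infected, 3 days after the donors had 5-fluorouracil (150 mg/kg), a drug that kills dividing cells, with a MIG retrovirus that carried GFP together with RUNX1-ERt2 (2 arrays) or ERt2 alone (2 arrays). ERt2 is a hormone-binding domain that tamoxifen switches on, and RUNX1-ERt2 is RUNX1 fused to it. Lethally irradiated recipients received the cells, and 6 weeks later tamoxifen (49.5 µg/g) on 3 days, and GFP-positive GMP were sorted 24 h after that. The labels name tamoxifen for all 4 transplanted samples, whereas the protocol speaks of a part of the mice. The labels give neither age, sex nor strain, nor whether replicate arrays stand for separate mice. The p-values therefore reflect how far these samples spread, which may be technical spread.

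Array levels are log2 processed signals relative to the 75th percentile of all probes on the same array, so that 0 is the brightness of a fairly bright probe and 1 unit is a doubling. A level belongs to its own probe, and levels of different genes were not compared. On 53.5 to 63.1% of probes the signal was well above background, and no spot was saturated. The ko and wt arrays lay on 2 slides: replicates 1 and 2 of both groups on slide 1, and replicates 3 and 4 on slide 2. The ERt2 arrays lay on slide 3 and the RUNX1-ERt2 arrays on slide 4, so slide and group cannot be told apart for the transplanted cells. All 10 GMP markers examined were detected, with Mpo, the neutrophil granule peroxidase, at 7.26 to 7.80 on the ko arrays and 7.70 to 8.19 on the wt arrays. The 2 Runx1 probes read higher in ko, at 3.40 ± 0.58 in ko and 1.71 ± 0.54 in wt for the brighter probe (SD, n = 4 each), and do not check the labels, since the sources used here do not give their place relative to the floxed segment. The embryonic globins Hbb-y and Hba-x had no probe well above background on any of the 12 arrays, while Hbb-bh1, another embryonic beta-like globin, was well above background on 9 arrays.

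**Figure D1:**
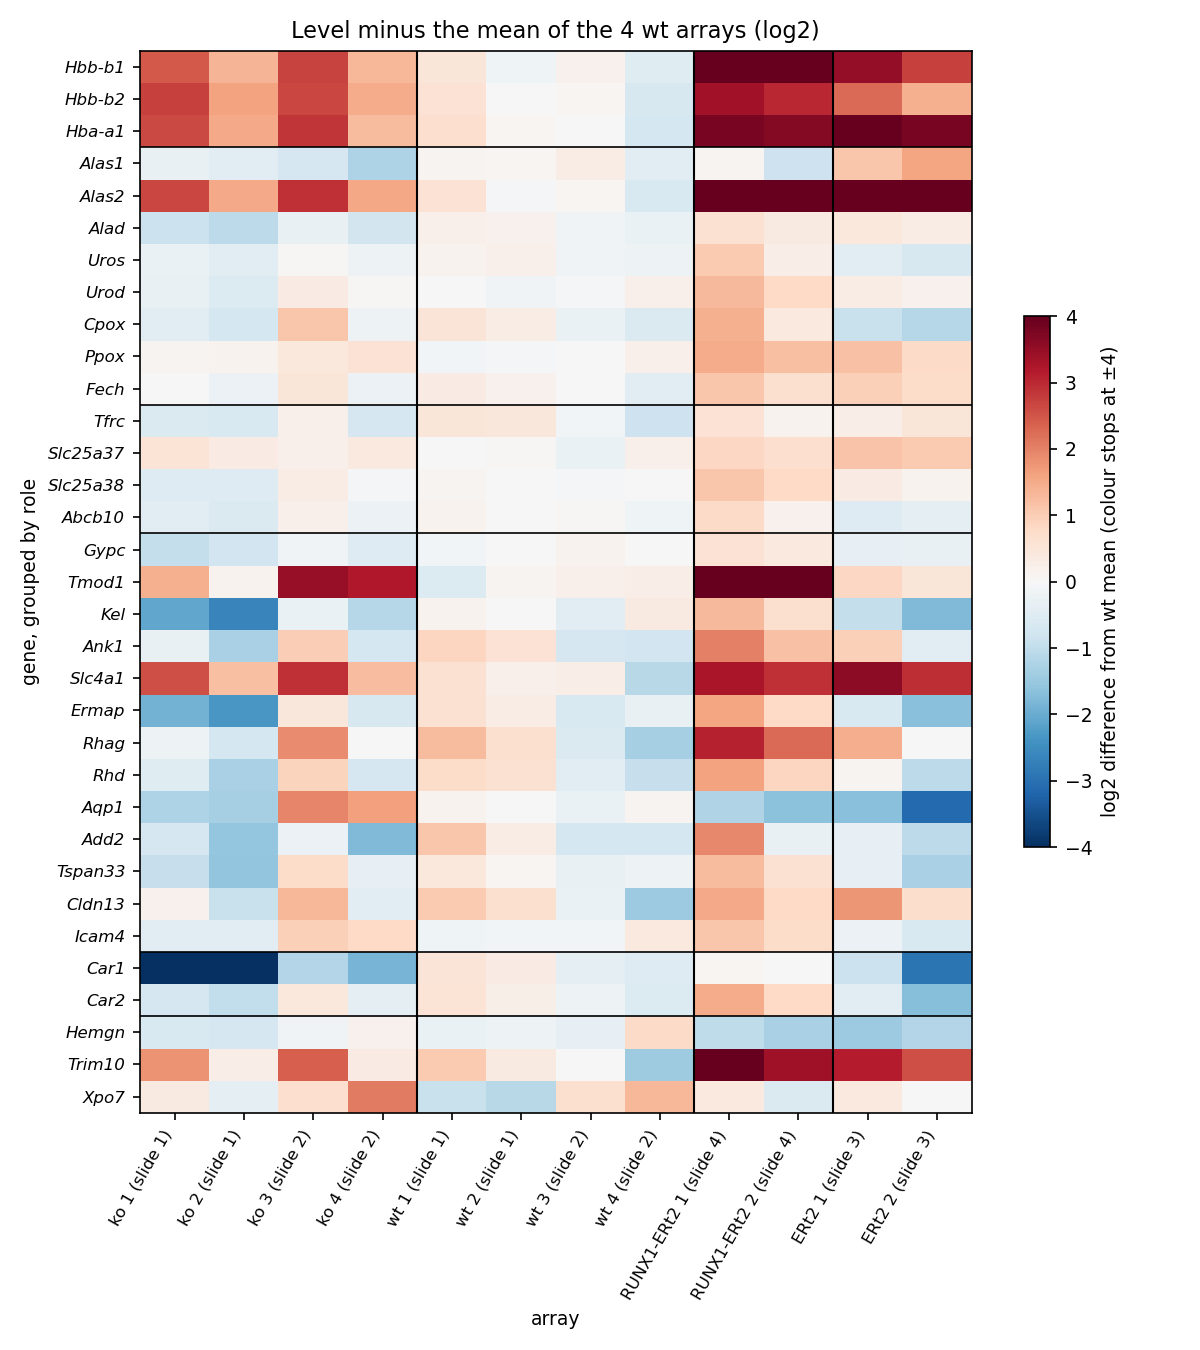
Heat map of the 33 genes (rows, grouped by role) on the 12 arrays (columns, ordered ko, wt, RUNX1-ERt2, ERt2, with the slide in brackets). Colour is the log2 level minus the mean of the 4 wt arrays. The globins, Alas2 and Slc4a1 are above the wt mean on all ko, RUNX1-ERt2 and ERt2 arrays, while Car1, Kel and Ermap are lowest on the ko arrays of slide 1.

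Comparing ko with wt asks which red cell genes change when Runx1 is deleted in GMP that were not transplanted. Globin genes, the erythroid form of the first heme enzyme and the main anion exchanger of the red cell membrane were higher in ko, each by 3.88- to 4.46-fold, while carbonic anhydrase 1, the Kell glycoprotein gene, glycophorin C and the second heme enzyme were lower. In all, 7 of the 33 genes rose and 4 fell at an adjusted p under 0.05. Over all genes tested, 25.3% passed that threshold, 11.5% upward and 13.8% downward, so the share of the 33 genes that fell is close to that of all genes. With arrays scaled to their median instead, 1880 of all genes were higher and 1397 lower, against 2065 and 2471 here. The median ko minus wt difference was -0.11 for the 33 genes and -0.05 for all genes.

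All 3 globins rose in ko. Hbb-b1, an adult beta globin gene now named Hbb-bt, had levels of 4.90, 3.82, 5.15 and 3.78 on ko arrays 1 to 4, against 2.94, 2.30, 2.62 and 1.98 on the wt arrays. Every ko array lay above every wt array, a difference of 1.96 ± 0.37 (log2, SE; adjusted p = 0.00616). Hbb-b2, the other adult beta globin gene, had 2.60, 1.47, 2.54 and 1.33 on the ko arrays and 0.42, -0.17, -0.06 and -0.78 on the wt arrays. Here too the groups did not overlap, and the difference was 2.13 ± 0.36 (adjusted p = 0.00371). Hba-a1, an adult alpha globin gene, had 4.96, 3.84, 5.18 and 3.61 on the ko arrays and 3.00, 2.40, 2.31 and 1.62 on the wt arrays, without overlap. It differed by 2.07 ± 0.40 (adjusted p = 0.00650). On each slide the lower-numbered array of a group read higher than the other for all 3 globins, in ko and in wt. The near-identical copies Hba-a2 and Hbb-bs, whose transcripts these probes may share, differed by 1.86 (adjusted p = 0.00756) and 2.26 (adjusted p = 0.00602). The signal therefore cannot be assigned to single globin copies. The mm9 positions of the probes are chr7:110961105-110961164 for Hbb-b1 and chr11:32183955-32184014 for Hba-a1, with Hbb-b2 unmapped in the files, and exon context was not analysed here. In bulk samples such as these, fewer cells of a type and less RNA per cell cannot be told apart.

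The regulatory sequence before the start of 4 genes is shown because it lets the genes that rose in ko (Hbb-b1, Hba-a1 and Alas2) be read beside one that fell (Kel). Each is the 250 bases upstream of the RefSeq start (GRCm38.p6), 5′ to 3′ on the strand of the gene. The Hbb-b1 window is that of Hbb-bt at chr7:103813924-103814173 (minus strand), and the others are chr11:32283422-32283671 for Hba-a1 (plus strand), chrX:150547167-150547416 for Alas2 (plus strand) and chr6:41704326-41704575 for Kel (minus strand). Capitals mark GATA words (GATA preceded by A or T and followed by A or G), the RUNX word TGTGGT and the word CACCC, each on either strand.
Hbb-b1: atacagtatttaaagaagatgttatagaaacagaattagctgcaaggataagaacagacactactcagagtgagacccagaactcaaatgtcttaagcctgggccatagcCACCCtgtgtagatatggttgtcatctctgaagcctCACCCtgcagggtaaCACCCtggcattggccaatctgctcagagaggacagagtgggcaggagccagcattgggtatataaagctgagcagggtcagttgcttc
Hba-a1: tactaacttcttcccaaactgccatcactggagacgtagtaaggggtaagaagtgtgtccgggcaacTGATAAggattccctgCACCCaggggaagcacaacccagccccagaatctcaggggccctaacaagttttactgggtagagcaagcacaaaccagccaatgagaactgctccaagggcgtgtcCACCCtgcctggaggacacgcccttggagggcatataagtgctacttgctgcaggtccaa
Alas2: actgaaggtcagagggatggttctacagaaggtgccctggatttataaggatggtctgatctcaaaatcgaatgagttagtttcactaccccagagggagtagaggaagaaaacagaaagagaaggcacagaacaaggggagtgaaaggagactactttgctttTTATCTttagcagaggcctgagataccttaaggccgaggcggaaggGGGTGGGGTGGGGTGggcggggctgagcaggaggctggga
Kel: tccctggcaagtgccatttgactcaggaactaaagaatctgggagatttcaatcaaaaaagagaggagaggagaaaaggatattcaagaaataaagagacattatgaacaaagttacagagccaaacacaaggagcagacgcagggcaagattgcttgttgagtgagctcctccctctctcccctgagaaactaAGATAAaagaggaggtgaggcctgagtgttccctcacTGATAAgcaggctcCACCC
The Hba-a1 window holds TGATAA, which begins 183 bases before the start. The Alas2 window holds a GATA word on the other strand 86 bases before the start, followed by 3 adjacent copies of GGGTG, the reverse complement of CACCC. The Kel window holds 2 GATA words, which begin 56 and 19 bases before the start, and the Hbb-b1 window none of these words other than 3 copies of CACCC. No RUNX word lies in the 4 windows. The promoter table held 23 of the 33 genes, and by the window listed first for each, 11 (47.8%) had a GATA word, 4 (17.4%) a RUNX word and 17 (73.9%) CACCC. Over all 32851 windows of the same length, 26.5% had a GATA word, 14% a RUNX word and 52% CACCC. These words describe the windows, and no binding was measured.

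Alas2, the erythroid aminolevulinate synthase whose loss causes a sideroblastic anemia, followed the globins. Its levels were -0.41, -1.57, -0.15 and -1.53 on the ko arrays and -2.49, -3.11, -2.99 and -3.69 on the wt arrays (probe at chrX:147004993-147005052, mm9). All ko arrays exceeded all wt arrays, by 2.16 ± 0.40 on average (adjusted p = 0.00564). Alas1, which makes the same first intermediate in other tissues, went the other way without passing the threshold, with 4.91, 4.78, 4.52 and 3.97 on the ko arrays and 5.31, 5.27, 5.49 and 4.74 on the wt arrays. The ko and wt arrays overlapped through wt replicate 4, and the difference was -0.66 ± 0.25 (adjusted p = 0.0892). Its other probe gave -0.22.

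Of the other 6 heme enzymes, 1 fell in ko. Alad, which condenses the first intermediate into a pyrrole, had 0.73, 0.57, 1.32 and 0.86 on the ko arrays and 1.81, 1.79, 1.48 and 1.34 on the wt arrays. The ko arrays lay below all wt arrays (difference -0.74 ± 0.18, adjusted p = 0.0166). Leaving out wt replicate 1, wt replicate 2 or ko replicate 1 took its adjusted p to 0.0547, 0.0558 or 0.0544. Uros and Urod, the cytosolic enzymes that close and trim the porphyrin ring, differed by -0.21 ± 0.18 and -0.11 ± 0.16. Uros had 1.16, 0.98, 1.46 and 1.21 on the ko arrays and 1.56, 1.61, 1.28 and 1.21 on the wt arrays. Urod had 3.68, 3.45, 4.32 and 4.04 on the ko arrays and 4.00, 3.85, 3.90 and 4.18 on the wt arrays. Both genes overlapped between the groups, with adjusted p = 0.441 for Uros and 0.646 for Urod. Of the mitochondrial enzymes that finish heme, Ppox differed by 0.31 (adjusted p = 0.0768), Cpox by -0.07 (adjusted p = 0.928) and Fech by 0.00 (adjusted p = 0.991).

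Among membrane genes, Slc4a1, which encodes the anion exchanger band 3, had -0.01, -1.38, 0.34 and -1.36 on the ko arrays and -1.97, -2.37, -2.31 and -3.68 on the wt arrays. It rose by 1.98 ± 0.48 (adjusted p = 0.0174) with no overlap, and without ko replicate 1 the adjusted p was 0.0564. Tmod1, the tropomodulin that caps actin filaments of the membrane skeleton, had -6.06, -7.33, -4.01 and -4.28 on the ko arrays and -8.05, -7.37, -7.30 and -7.24 on the wt arrays. It was well above background on the 2 ko arrays of slide 2 and on none of the 4 wt arrays, so its fold is a bound, at least 1.30-fold higher in ko (adjusted p = 0.0118). The ko and wt arrays overlapped through ko replicate 2. With another background correction (normexp), its ko minus wt difference was -0.23 (adjusted p = 0.78).

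The probes of Slc4a1 (chr11:102210256-102210315), Kel (chr6:41636474-41636533) and Tmod1 (chr4:46127384-46127441) are placed on mm9 by the files. Kel, the Kell blood group glycoprotein, had -1.61, -2.16, 0.20 and -0.66 on the ko arrays and 0.61, 0.45, 0.03 and 0.82 on the wt arrays. It fell by 1.54 ± 0.41 (log2, SE; adjusted p = 0.0239), although ko replicate 3 lay above wt replicate 3. The call was lost on leaving out any of 5 arrays in turn (wt replicates 1 and 2, ko replicates 1, 2 and 4), with adjusted p of 0.0616 to 0.0732. Gypc, glycophorin C, which ties the membrane to its skeleton, had 2.39, 2.55, 3.18 and 2.82 on the ko arrays and 3.22, 3.31, 3.47 and 3.33 on the wt arrays. Its difference was smaller, -0.60 ± 0.12, but the groups did not overlap (adjusted p = 0.00713), and no single array decided it. Icam4, the Landsteiner-Wiener blood group adhesion molecule, had 0.19, 0.21, 1.59 and 1.41 on the ko arrays and 0.43, 0.52, 0.50 and 1.03 on the wt arrays. The slide 1 ko arrays lay below the wt arrays and the slide 2 ko arrays above them (0.23 ± 0.22 over both, adjusted p = 0.487). The other 8 membrane genes (Ank1, Ermap, Rhag, Rhd, Aqp1, Add2, Tspan33 and Cldn13) had differences of -1.11 to 0.26, none past the threshold and all with overlapping arrays.

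Carbonic anhydrases interconvert carbon dioxide and bicarbonate in red cells. Car1 had -0.91, -1.44, 2.37 and 1.66 on the ko arrays and 4.06, 3.87, 3.18 and 3.01 on the wt arrays. All ko arrays lay below all wt arrays, by far more on slide 1, and the difference was -3.11 ± 0.77 (8.64-fold lower in ko, adjusted p = 0.0186). A further probe of Car1 gave -3.32. The adjusted p was 0.0532 to 0.0601 without any 1 of wt replicates 1 and 2 or ko replicates 1 and 2. Car2 had 3.38, 3.07, 4.46 and 3.69 on the ko arrays and 4.59, 4.29, 3.84 and 3.49 on the wt arrays, with overlap (-0.40 ± 0.40, adjusted p = 0.502).

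Of the 4 genes of iron uptake and mitochondrial transport, 1 rose in ko. Slc25a37, mitoferrin-1, which brings iron into the mitochondria of red cell precursors, had 3.27, 3.07, 2.93 and 3.11 on the ko arrays and 2.74, 2.78, 2.47 and 2.93 on the wt arrays. The groups met at ko replicate 3 and wt replicate 4, and the rise of 0.37 ± 0.11 (adjusted p = 0.0411) was lost in 17 of 24 other settings, 10 of them without 1 array. Abcb10, a mitochondrial transporter, had 1.55, 1.41, 2.17 and 1.75 on the ko arrays and 2.12, 1.97, 2.02 and 1.80 on the wt arrays, with overlap (adjusted p = 0.331). Tfrc, the transferrin receptor, and Slc25a38, a mitochondrial glycine carrier, differed by -0.41 (adjusted p = 0.358) and -0.20 (adjusted p = 0.422). Of the remaining genes, Hemgn differed by -0.31 (adjusted p = 0.315), the erythroid RING protein gene Trim10 by 1.20 (adjusted p = 0.183) and Xpo7 by 0.69 (adjusted p = 0.187). When same-numbered ko and wt arrays were paired as a replicate block, Trim10 and Xpo7 reached adjusted p of 0.0485 and 0.0389. The probes of Xpo7 and of Ermap disagreed, at 0.18 for the other Xpo7 probe and -0.02 for a further Ermap probe, against -1.11 for the Ermap probe used.

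**Figure D2:**
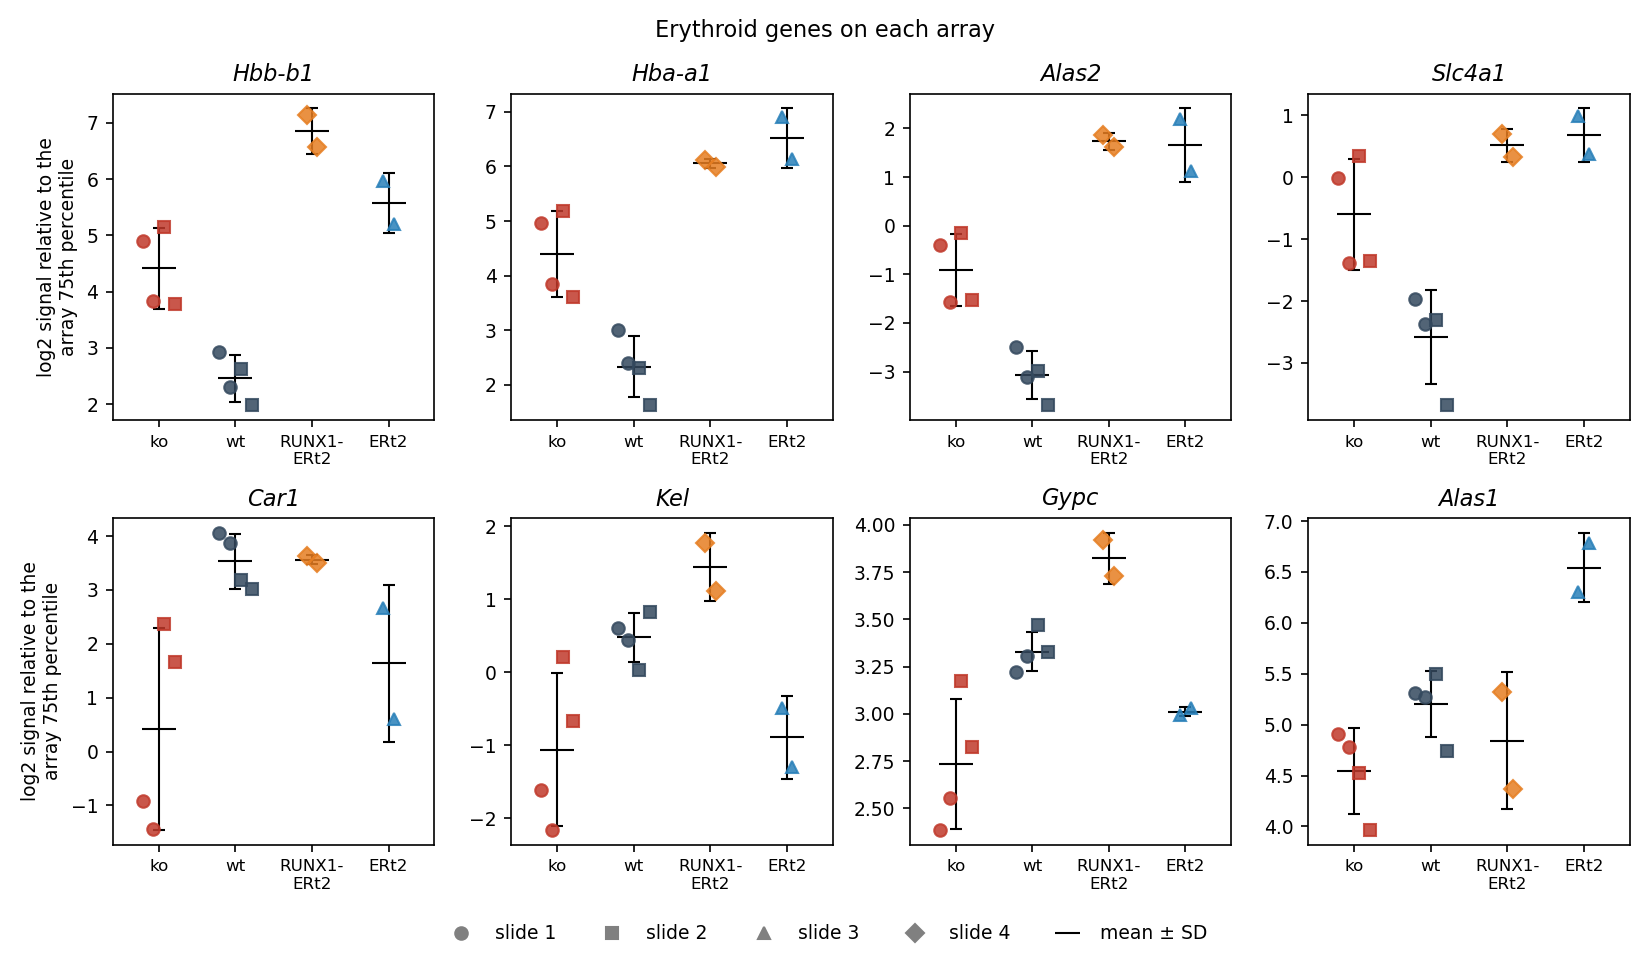
Levels of 8 red cell genes on every array (log2 signal relative to the 75th percentile of the array), grouped from left to right as ko, wt, RUNX1-ERt2 and ERt2. Marker shapes give the slide and black bars the mean ± SD. Hbb-b1, Hba-a1, Alas2 and Slc4a1 are higher on all ko than on all wt arrays, Car1 and Gypc lower, and Alas1 is higher on both ERt2 arrays than on both RUNX1-ERt2 arrays.

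The slides gave different pictures of ko against wt. On slide 1 the ko arrays lay below the wt arrays for 23 of the 33 genes and above for 9. On slide 2 they lay below for 4 and above for 12, and overlapped for 17. The shares of all genes that did so on each slide are not given here. Groups of 2 arrays often do not overlap: between RUNX1-ERt2 and ERt2, 58.9% of all genes did not. By mean difference, 16 of 33 genes (48.5%) were lower in ko on slide 1 and higher in ko on slide 2, as were 14.2% of all genes, and 0 of 33 went the reverse way, as did 11.4% of all genes. Another 10 genes (30.3%) were higher on both slides and 7 (21.2%) lower on both, against 32.2% and 42.2% of all genes. The median ko minus wt difference of the 33 genes was -0.57 on slide 1 and 0.40 on slide 2, and that of all genes -0.06 and -0.03. These signs belong to the probe used. The other Slc25a37 probe was 0.65 on slide 1 and -0.18 on slide 2. Both other Tfrc probes were lower in ko on both slides (-0.95 and -0.29, -1.14 and -0.20). The other probes of Alas1, Uros, Car1, Ermap and Xpo7 kept the signs of the probe used.

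The genes that did not change sign were the globins, Alas2, Slc4a1, Tmod1, Trim10, Ppox, Slc25a37 and Xpo7 upward, and Alas1, Alad, Gypc, Car1, Kel, Add2 and Hemgn downward. Alas2 differed by 1.82 on slide 1 and 2.50 on slide 2, Hba-a1 by 1.70 and 2.43, and Slc4a1 by 1.47 and 2.49. Car1 kept its direction at very different sizes, -5.14 on slide 1 and -1.08 on slide 2, as did Kel at -2.41 and -0.66. The widest of the 16 reversals was that of Rhag, the Rh-associated glycoprotein, at -1.42 on slide 1 and 1.90 on slide 2. Aqp1, the water channel aquaporin 1, had 3.05 and 2.96 on ko arrays of slide 1 and 6.23 and 5.91 on ko arrays of slide 2, against 4.43, 4.28, 4.03 and 4.40 on the wt arrays. It lay below wt on slide 1 and above wt on slide 2 without overlap, as did Rhag, Cpox and Icam4. No share of all genes is given here to set beside these 4 genes.

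None of these reversals passed a direct test of the difference between slides. In limma, 0 of 33 genes were called (lowest adjusted p = 0.218, Aqp1), against 1 of 17905 genes (0.00559%), and 16 of the 33 genes had an unadjusted p under 0.05, against 1357 of all genes. Fitted within a slide with a spread shared by all arrays, 5 members were lower in ko on slide 1 (Alad, Gypc, Car1, Kel and Ermap; 4.78% of all genes were lower) and none was higher (6% of all genes). On slide 2, 6 were higher (the 3 globins, Alas2, Tmod1 and Aqp1; 5.28% of all genes) and none was lower (5.78%). From slide 1 to slide 2 the wt levels of the 33 genes moved by a median of -0.47 with no call, and the ko levels by 0.61 with 6 genes higher and 0 lower (7.52% of all genes were called, and 3.8% of all genes were higher). Slide, scan protocol name and sample set cannot be told apart here. For late neutrophil markers, 0 of 14 passed the same test of the difference between slides. Their summed linear level on ko arrays was 23.5 and 77.5 on slide 1 and 301.4 and 145.2 on slide 2. On wt arrays it was 144.4 and 54.5 on slide 1 and 294.9 and 64.5 on slide 2. Their median ko minus wt difference was -0.93 on slide 1 and 0.74 on slide 2. From slide 1 to slide 2 they moved by a median of 0.735 in wt and 2.64 in ko. Their part in the result was not tested.

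**Figure D3:**
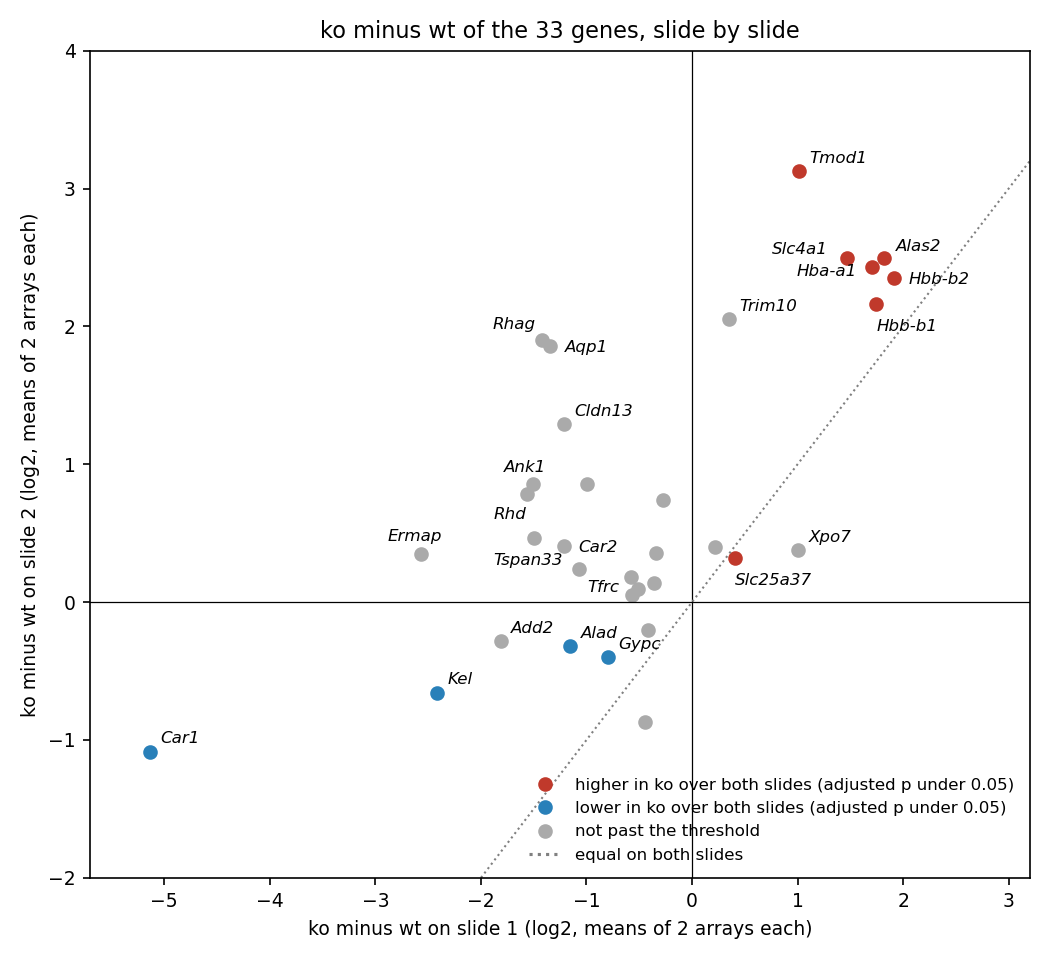
ko minus wt difference (log2) of each of the 33 genes on slide 1 (x axis) against slide 2 (y axis), each from 2 ko and 2 wt arrays. Red and blue points passed the threshold over both slides together. The globins, Alas2 and Slc4a1 lie in the upper right near the dotted line of equal differences, and 16 genes lie in the upper left, lower in ko on slide 1 and higher on slide 2.

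Transcription factors of the erythroid programme were read as a companion list of 13 genes. In ko, 6 of them rose and 0 fell, where 11.5% of all genes rose and 13.8% fell. Their median was 0.49, against -0.05 for all genes. Sox6, which helps to silence embryonic globin genes, had -1.28, -1.82, -2.15 and -1.56 on the ko arrays and -4.96, -5.53, -5.65 and -5.01 on the wt arrays. That rise of 3.59 ± 0.32 (adjusted p = 0.000152) was 3.70 on slide 1 and 3.48 on slide 2. Zfpm1, the GATA partner FOG1, Cbfa2t3, a corepressor, and Nfe2, a globin gene activator, rose by 0.79, 0.71 and 0.64 (adjusted p = 0.0307, 0.0141 and 0.0034). Gata1, the master regulator of red cell genes, was not past the threshold (0.41, adjusted p = 0.413), at -0.36 on slide 1 and 1.17 on slide 2. Klf1, which activates adult beta globin by binding CACCC words, differed by -2.03 on slide 1 and 0.77 on slide 2 (-0.63 over both, adjusted p = 0.432).

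Of 28 further heme and iron genes tested, 1 rose and 4 fell in ko, where 11.5% of all genes rose and 13.8% fell, so that the share that fell was near that of all genes. Hmox1, the inducible heme oxygenase that breaks heme down, fell by 1.26 (adjusted p = 0.0228). Hfe, which tunes iron uptake, fell by 0.95 (adjusted p = 0.0319), and Flvcr1, a heme exporter, fell by 0.61 (adjusted p = 0.00987). The rise was that of Hmox2, the constitutive heme oxygenase (0.26, adjusted p = 0.0431). Of 23 further red cell genes, 8 rose and 0 fell, with a median of 0.12. They included Cd59a, which protects cells from complement (2.33, adjusted p = 0.000437), Fam210b (0.77, adjusted p = 0.0115) and Tmcc2 (0.68, adjusted p = 0.00971). Another of the 8, Sptb (beta spectrin), was dim on all wt and ERt2 arrays and is given no fold. Sptb could pass the filter on dim probes only through ko or RUNX1-ERt2, so its call is not read as independent evidence of a rise. Markers of megakaryocytes, the sister lineage of red cells, were higher in ko for 6 of 12 genes tested and lower for 0, with a summed linear level of 51.4 to 68.0 on the ko arrays and 11.6 to 17.8 on the wt arrays. Their part in the red cell result was not tested. Of these defining markers Gp6 was not tested, as it was well above background on 4 arrays but not throughout any group. GMP markers were lower in ko for 5 of 10 genes and higher for 1, with summed levels of 434 to 564 on the ko arrays and 635 to 889.7 on the wt arrays. Of the other marker lists, 0 rose and 3 of 8 fell for monocytes, 1 rose and 4 of 6 fell for basophils and mast cells, 0 rose and 2 of 7 fell for T and NK cells, and 0 rose and 1 of 6 fell for B lineage cells.

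Comparing RUNX1-ERt2 with ERt2 asks what changes when RUNX1 activity is returned to Runx1-deleted GMP. Of the 13 membrane genes, 4 were higher with RUNX1-ERt2 (Gypc, Tmod1, Kel and Icam4), as were Car2, the heme enzymes Uros and Urod, and Abcb10, and Alas1 was lower. In all, 8 of 33 genes rose and 1 fell, against 19.1% of all genes past the threshold (10.2% upward, 8.87% downward). The median difference was 0.97 for the 33 genes and 0.00 for all genes, and 22 genes lay higher on both RUNX1-ERt2 arrays than on both ERt2 arrays, as did 29.1% of all genes, while 3 lay lower, as did 29.8%, so that 58.9% of all genes did not overlap in either direction. These arrays share none with ko and wt, but each group is 2 arrays on 1 slide.

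Tmod1 had -1.996 and -2.92 on the RUNX1-ERt2 arrays and -6.67 and -6.99 on the ERt2 arrays. It was not well above background on either ERt2 array, so it was at least 6.63-fold higher with RUNX1-ERt2 (adjusted p = 0.00175, and 0.313 with normexp). It passed the filter on dim probes through the RUNX1-ERt2 arrays, where it is high, so its call is no independent evidence of a rise, and 7 genes rose without it. Kel had 1.77 and 1.11 on the RUNX1-ERt2 arrays and -0.49 and -1.29 on the ERt2 arrays, a rise of 2.33 ± 0.57 (adjusted p = 0.0208). Gypc had 3.92 and 3.73 with RUNX1-ERt2 and 2.99 and 3.03 with ERt2, and it rose by 0.81 ± 0.17 (adjusted p = 0.00900). Of the genes on the list, Kel and Gypc passed the threshold in both comparisons, lower in ko and higher with RUNX1-ERt2, besides Tmod1, which was higher in both. Of all genes, 25.3% passed it in ko minus wt and 19.1% in RUNX1-ERt2 minus ERt2. The share that passed it in both is not given here, so the double calls are not read as a result about these genes. Icam4 had 1.72 and 1.34 on the RUNX1-ERt2 arrays and 0.40 and -0.00 on the ERt2 arrays (1.34 ± 0.31, adjusted p = 0.0168).

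Car2 had 5.54 and 4.85 on the RUNX1-ERt2 arrays and 3.64 and 2.34 on the ERt2 arrays, a rise of 2.21 ± 0.57 (4.62-fold, adjusted p = 0.0250). Car1 had 3.62 and 3.50 with RUNX1-ERt2 and 2.66 and 0.61 with ERt2, and the ERt2 arrays lay far apart (1.93 ± 1.09, adjusted p = 0.268). In the heme chain, Uros had 2.47 and 1.69 with RUNX1-ERt2 and 0.96 and 0.78 with ERt2 (1.21 ± 0.26, adjusted p = 0.0116). Its partner Urod had 5.28 and 4.77 with RUNX1-ERt2 and 4.27 and 4.15 with ERt2 (0.82 ± 0.22, adjusted p = 0.0305), and the next enzyme, Cpox, differed by 1.94 (adjusted p = 0.0527). Abcb10 had 2.74 and 2.14 on the RUNX1-ERt2 arrays and 1.45 and 1.58 on the ERt2 arrays (0.92 ± 0.25, adjusted p = 0.0324). Alas1 had 5.32 and 4.37 on the RUNX1-ERt2 arrays and 6.30 and 6.78 on the ERt2 arrays. It fell by 1.70 ± 0.36 (adjusted p = 0.0105), and its other probe differed by -1.48.

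For the globins, Alas2 and Slc4a1, which were higher in ko on both slides, no change with RUNX1-ERt2 passed the threshold. Alas2 had 1.86 and 1.61 on the RUNX1-ERt2 arrays and 2.19 and 1.13 on the ERt2 arrays, with overlap (0.07, 95% interval -1.21 to 1.36). Hba-a1 had 6.12 and 5.99 with RUNX1-ERt2 and 6.91 and 6.14 with ERt2, a difference of -0.47 (95% interval -1.74 to 0.81). Slc4a1 had 0.69 and 0.33 with RUNX1-ERt2 and 0.98 and 0.37 with ERt2, a difference of -0.17 (95% interval -1.71 to 1.38). These intervals are wide, and adjusted p was 0.952, 0.638 and 0.904. Hbb-b1 and Hbb-b2 lay higher on both RUNX1-ERt2 arrays, short of the threshold, while the Hbb-bs probe differed by -0.56 (adjusted p = 0.594). Hbb-b1 had 7.14 and 6.57 with RUNX1-ERt2 and 5.96 and 5.20 with ERt2 (1.27, adjusted p = 0.133). Hbb-b2 had 3.22 and 2.86 with RUNX1-ERt2 and 2.13 and 1.27 with ERt2 (1.34, adjusted p = 0.106). Alad had 2.21 and 1.98 with RUNX1-ERt2 and 2.01 and 1.90 with ERt2 (adjusted p = 0.762), and Slc25a37 had 3.55 and 3.41 with RUNX1-ERt2 and 3.88 and 3.77 with ERt2 (-0.35, adjusted p = 0.168). Of the other 15 genes not called, Ermap (2.33, adjusted p = 0.0786), Tspan33 (1.76, adjusted p = 0.0820) and Slc25a38 (0.73, adjusted p = 0.0587) had the lowest adjusted p.

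Single arrays decide many of these calls. Without RUNX1-ERt2 replicate 1, the count of genes higher with RUNX1-ERt2 was 1, and without ERt2 replicate 2 it was 2, with a lone array then assumed to vary like the other groups. Kel had adjusted p of 0.113 and 0.121 in those fits, Car2 0.132 and 0.153, Icam4 0.0981 and 0.100, Uros 0.0625 and 0.0672, Urod 0.179 and 0.130, and Abcb10 0.190 and 0.0898. Gypc had 0.0581 without RUNX1-ERt2 replicate 1. Alas1 had 0.0701 without ERt2 replicate 2 and 0.0681 without RUNX1-ERt2 replicate 2. The count of higher genes was 12 without ko replicate 3, an array that enters through the shared spread. Over all genes, 1846 were higher without that array and 1830 with it.

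**Figure D4:**
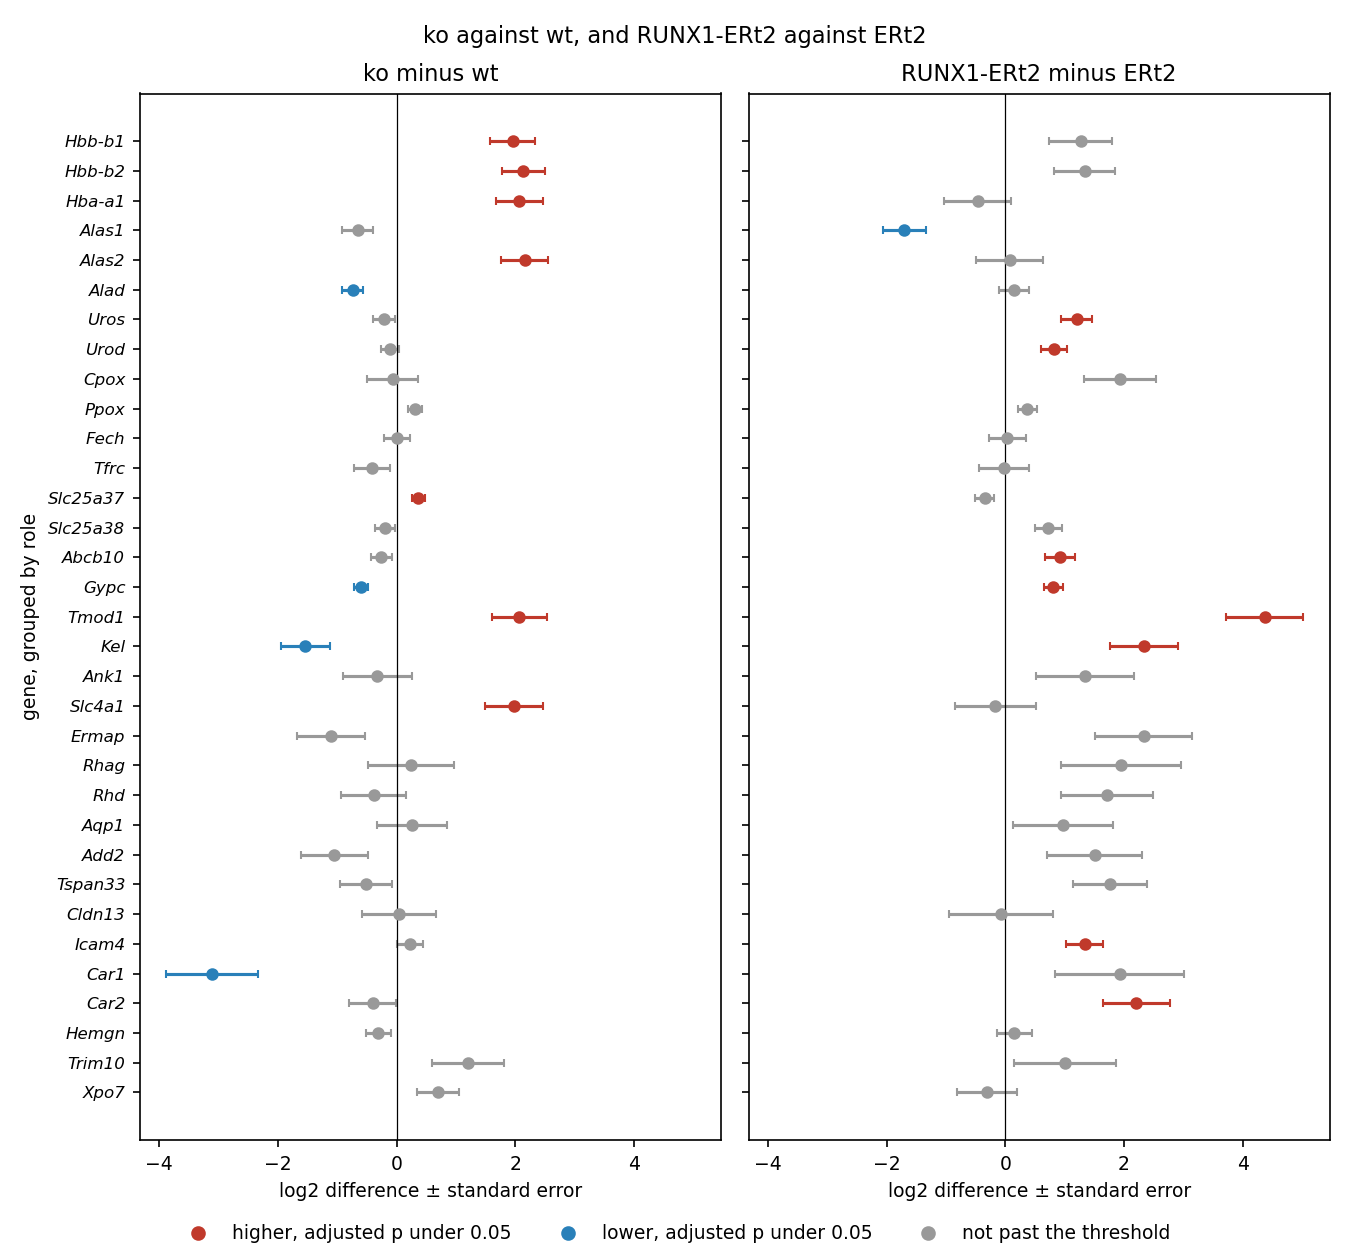
Fitted differences of the 33 genes (rows, grouped by role) with standard errors, for ko minus wt on the left and RUNX1-ERt2 minus ERt2 on the right, on the same log2 axis. Coloured points passed an adjusted p of 0.05: 7 higher and 4 lower in ko, and 8 higher and 1 lower with RUNX1-ERt2.

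Of the 13 erythroid transcription factors, 3 rose and 1 fell with RUNX1-ERt2, where 10.2% of all genes rose and 8.87% fell. Gfi1b, a repressor needed for red cell and platelet formation, had 3.86 and 3.70 on the RUNX1-ERt2 arrays and 2.47 and 1.01 on the ERt2 arrays (2.04, adjusted p = 0.0157). Gata1 had 3.94 and 3.73 with RUNX1-ERt2 and 2.39 and 1.43 with ERt2 (1.93, adjusted p = 0.0202). Tal1 rose by 0.93 (adjusted p = 0.0324) and Nfe2 fell by 0.62 (adjusted p = 0.0197). Among further heme and iron genes, 4 of 28 rose and 4 fell, with Blvrb, a biliverdin reductase, at 2.20 (adjusted p = 0.0312) and the endosomal iron reductase Steap3 at 1.56 (adjusted p = 0.0259). Hfe and Tfr2, which sense iron in the liver, fell by 1.54 and 1.10 (adjusted p = 0.0223 and 0.0359). Among further red cell genes, 3 of 23 rose and 1 fell. Pklr, the red cell pyruvate kinase (2.81, adjusted p = 0.0400), and the antioxidant enzyme gene Prdx2 (0.97, adjusted p = 0.00373) were among those that rose, and Stom, stomatin, fell by 1.09 (adjusted p = 0.0133). Monocyte and macrophage markers fell for 7 of 8 genes tested, with summed linear levels of 5.87 to 8.98 on the RUNX1-ERt2 arrays and 34.5 to 35.95 on the ERt2 arrays. B lineage markers summed to 14 to 28.8 with RUNX1-ERt2 and 8.71 to 9.72 with ERt2, with 2 of 6 higher and 1 lower, and Pax5 and Ebf1 not tested as dim. Igll1, 1 of the 2, passed the filter through the RUNX1-ERt2 arrays. GMP markers fell for 4 of 10 genes and rose for 0, with sums of 490 to 682 on the RUNX1-ERt2 arrays and 936 to 1067 on the ERt2 arrays. Late neutrophil markers fell for 2 of 14 and rose for 0, with a median difference of -1.52 and sums of 130.1 to 150.5 with RUNX1-ERt2 and 639 to 818.5 with ERt2. Of the remaining lists, 1 of 12 megakaryocyte markers rose and 2 fell, 1 of 7 T and NK cell markers rose and 1 fell, and 2 of 6 basophil and mast cell markers rose and 2 fell. The part of these lists in the red cell result was not tested.

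Alas2 and Hba-a1 were higher in ERt2 than in ko and in RUNX1-ERt2 than in wt, past the threshold in both comparisons. The beta globin probe Hbb-bs differed by 2.41 in ERt2 minus ko (adjusted p = 0.00389) and 4.12 in RUNX1-ERt2 minus wt (adjusted p = 0.000274). Hbb-b1 and Hbb-b2 passed the threshold only in RUNX1-ERt2 minus wt. In ERt2 minus ko, Hbb-b1 differed by 1.17 (adjusted p = 0.0527) and Hbb-b2 by -0.29 with overlapping arrays (adjusted p = 0.604). These comparisons differ in transplantation into irradiated recipients, 5-fluorouracil, virus, sorting for GFP, tamoxifen and slide at once, which cannot be told apart. RUNX1-ERt2 minus wt also differs in Runx1 genotype (deleted against intact) and in the RUNX1-ERt2 fusion. Both comparisons share arrays with those above. In ERt2 minus ko, 7 of 33 genes rose and 2 fell, against 56.9% of all genes past the threshold (30.2% upward, 26.7% downward), with a median of 0.36 for the 33 genes. In RUNX1-ERt2 minus wt, 16 rose and 1 fell, against 46.1% of all genes (21.9% upward, 24.1% downward), with a median of 0.95. Globin levels summed to 165.7 to 219.9 on the RUNX1-ERt2 arrays and 109.7 to 186.5 on the ERt2 arrays, and to 28.5 to 77.4 on the ko arrays and 7.60 to 17.0 on the wt arrays, as linear signal relative to the 75th percentile.

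Relative to ko, ERt2 cells had higher Alas2 by 2.57 (adjusted p = 0.00196), Hba-a1 by 2.12 (adjusted p = 0.00516), Alas1 by 2.00 (adjusted p = 0.000610) and Alad by 1.08 (adjusted p = 0.00247). Slc25a37, Fech and Ppox rose by 0.73, 0.84 and 0.66 (adjusted p = 0.00173, 0.0231 and 0.00314). Thus 5 of the 8 heme enzymes rose and none fell. Aqp1 had 2.60 and 1.18 on the ERt2 arrays, below all ko arrays (-2.65, adjusted p = 0.0123, and 0.123 without ERt2 replicate 2). Hemgn, an erythroid nuclear protein, had 2.94 and 3.22 on the ERt2 arrays and 3.79, 3.71, 4.25 and 4.56 on the ko arrays, with means of 3.08 ± 0.20 (SD, n = 2) in ERt2 and 4.08 ± 0.40 (SD, n = 4) in ko (limma adjusted p = 0.00871). Without ERt2 replicate 1 the adjusted p was 0.0694 for Hemgn, 0.0526 for Hba-a1 and 0.130 for Fech, which also missed the threshold without any 1 of 3 other arrays (ERt2 replicate 2, ko replicates 2 and 4). Without ko replicate 3, 14 genes rose, while 5274 of all genes were higher, against 5405 with that array.

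Relative to wt, RUNX1-ERt2 cells had higher Alas2 by 4.80 (27.9-fold, adjusted p = 7.8e-05), Hbb-b1 by 4.40 (21.1-fold, adjusted p = 8.3e-05), Hba-a1 by 3.72 (adjusted p = 0.000319) and Hbb-b2 by 3.18 (adjusted p = 0.000462). Slc4a1 rose by 3.09 (adjusted p = 0.00262) and Rhag by 2.67 (adjusted p = 0.0336), and Tmod1 was at least 10.1-fold higher (adjusted p = 0.000128). Tmod1 was kept through the RUNX1-ERt2 arrays here too, and 15 genes rose without it. Trim10 had -0.62 and -1.61 on the RUNX1-ERt2 arrays and -3.95, -4.63, -4.97 and -6.39 on the wt arrays (3.87, adjusted p = 0.00267). Ppox (1.34), Urod (1.04), Slc25a38 (0.95), Icam4 (0.91), Fech (0.88), Slc25a37 (0.75), Uros (0.66) and Gypc (0.49) rose as well. Hemgn had 3.36 and 3.10 on the RUNX1-ERt2 arrays and 4.13, 4.19, 4.07 and 5.15 on the wt arrays, and it fell by 1.16 (adjusted p = 0.00546). Car1 lay within the wt range, with 3.62 and 3.50 on the RUNX1-ERt2 arrays between the lowest and highest wt arrays (0.03, adjusted p = 0.982). Without RUNX1-ERt2 replicate 1, 11 genes rose, and Rhag, Icam4, Fech, Uros and Gypc missed the threshold, with adjusted p of 0.142 to 0.379. Uros and Rhag also missed it without some other single arrays, 7 for Uros and 3 for Rhag. Over all genes too, fewer were called higher without RUNX1-ERt2 replicate 1.

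In ERt2 minus ko, where 30.2% of all genes rose and 26.7% fell, 1 of 13 erythroid transcription factors rose and 7 fell, among them Gata1 (-1.79, adjusted p = 0.00494), Gfi1b (-1.60, adjusted p = 0.00858), Sox6 (-1.42, adjusted p = 0.0138) and Cbfa2t3 (-1.08, adjusted p = 0.00171). Hmox1 (3.12, adjusted p = 0.000208) and the mitochondrial carrier Slc25a39 (1.21, adjusted p = 0.00142) were among 13 of 28 heme and iron genes that rose. The 6 that fell included Slc11a2, which moves iron out of endosomes (-1.28, adjusted p = 0.00414), and Ireb2, an iron-sensing RNA-binding protein (-1.16, adjusted p = 0.000140). Of 23 further red cell genes, 5 rose and 5 fell, smaller shares than those of all genes, with Stom at 1.13 and Dmtn, the actin-bundling protein dematin, at -2.08. In RUNX1-ERt2 minus wt, where 21.9% of all genes rose and 24.1% fell, 4 of 13 transcription factors rose and 0 fell, with Sox6 at 2.58 (adjusted p = 0.000821), Gfi1b at 1.30, Tal1 at 0.77 and Nfe2 at 0.46. Among the heme and iron genes, 9 rose and 5 fell, with Abcb6, a porphyrin transporter, at 1.63 (adjusted p = 9.2e-05), Hfe at -1.46 and Tfr2 at -1.43. Among further red cell genes, 13 rose and 2 fell, with Epb42, a protein of the membrane skeleton, at 3.37 (adjusted p = 0.00323, with 2 of the 4 wt arrays well above background), Cd59a at 3.14 and Pklr at 2.05. In ERt2 minus ko, late neutrophil markers rose for 9 of 14 genes, GMP markers for 7 of 10 and basophil and mast cell markers for 4 of 6, with 0 lower in each, and monocyte markers rose for 6 of 8 and fell for 1. Megakaryocyte markers fell for 6 of 12 with 0 higher, while 2 of 6 B lineage markers rose and 1 fell, and 1 of 7 T and NK cell markers rose and 2 fell. In RUNX1-ERt2 minus wt, monocyte markers fell for 4 of 8 and T and NK cell markers for 1 of 7, with 0 higher in either. Of the other lists there, 1 of 10 GMP markers rose and 2 fell, 2 of 14 late neutrophil and 2 of 12 megakaryocyte markers rose and 1 of each fell, and 2 of 6 B lineage and 2 of 6 basophil and mast cell markers rose and 2 of each fell. The part of these lists in the results was not tested.

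Over the 4 comparisons, 24 of the 33 genes passed the threshold at least once and 9 did not: Cpox, Ank1, Ermap, Rhd, Tfrc, Add2, Tspan33, Cldn13 and Xpo7. Ank1, ankyrin 1, and Add2, beta adducin, tie the membrane to the spectrin skeleton, and Rhd carries the Rh antigen. Between arrays of 1 group these genes spread by SDs of up to 1.57 (Add2 on the RUNX1-ERt2 arrays). Rhd had 1.02 ± 0.92 in ko and 1.41 ± 0.81 in wt (SD, n = 4 each), and 2.65 ± 0.53 with RUNX1-ERt2 and 0.94 ± 0.83 with ERt2 (SD, n = 2 each).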

How the data were processed

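Gene expression was measured in sorted mouse GMP with 12 Agilent 1-colour arrays (4 ko, 4 wt, 2 RUNX1-ERt2, 2 ERt2). The deposited scanner files hold spot intensity values (processed signals), background-subtracted per the file headers, and the submitters' processing notes name Agilent Feature Extraction 9.1. The deposited series matrix holds a ratio of each processed signal to a value near the median of its array (column medians 0.91 to 0.94), as its comparison with the scanner values showed, and its ko and wt columns matched the scanner file of another replicate of the same group. It was used as an alternative.

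From the processed signals, log2 levels were computed, each array's 75th percentile being subtracted. Probes were kept if 1 or more groups had them well above background throughout, and the brightest probe stood for a gene (17905 genes). Names came from RefSeq through accession (27234 of 39429 probes), symbol (3576) or synonym (565), while 8054 stayed under their file name. limma 3.58.1 in R 4.3.3 fitted group means in 1 model with a slide term for ko and wt, and adjusted p-values (Benjamini-Hochberg, threshold 0.05) run over all tested genes. The fit had 7 residual and 2.11 prior degrees of freedom. A fit with a mean per group and slide tested the difference between slides. The number of arrays limits the precision.

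Genes with values on every array are those that passed the threshold in ko minus wt or RUNX1-ERt2 minus ERt2. Hbb-b1, Hbb-b2, Hba-a1, Alas1, Alas2, Car1, Car2 and Slc4a1 have them too. From each companion list and comparison, up to 4 of the largest called genes were chosen to be named, most by their difference only. Some companion genes that this choice takes are not reported here. The members and lists were chosen with earlier results of these data known. Same-numbered ko and wt arrays deviated together (correlations 0.373, 0.354, 0.176 and 0.674), and same numbers also share slides: within slides the correlation was -0.027 for numbers 1 and 2 and 0.431 for 3 and 4, and ko 1 with wt 2, of the same slide, had 0.451. Alternatives were normexp (offset 50), quantile and array median scaling, the series matrix, other probe filters and probe averaging, the slide term, the replicate block, the arrays in the fit and each array left out. Probe positions are mm9, and promoters RefSeq GRCm38.p6.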

Additional observations from a re-analysis of the deposited data

Results flagged for a closer look

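In each group of 4 arrays, an array far from the rest of its group was looked for, in 66 groups (33 genes in ko and in wt). Chance flags about 1 in 20 such groups, and 4 stood out. Tfrc, the transferrin receptor, was 0.83 on ko replicate 3, above the other ko arrays. In wt, Hemgn was 5.15 and Icam4 1.03 on replicate 4, each above the other wt arrays. Tmod1 was -8.05 on wt replicate 1, below the other wt arrays, but no wt array was well above background for that probe.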

How the results depend on the processing

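Counts of red cell genes past the threshold moved with several choices. In ko minus wt, 7 rose and 4 fell: with normexp 4 rose, on slide 1 alone 0 rose and 17 fell, and on slide 2 alone 2 rose and 0 fell, with fewer samples in each slide fit. Over all genes, slide 1 alone had 1877 higher and 2341 lower, and slide 2 alone 181 and 200. Normexp had 923 and 1053, against 2065 and 2471 in the main fit. By limma's unadjusted p under 0.05, the whole table had 6793 genes. In RUNX1-ERt2 minus ERt2, 8 rose and 1 fell. With normexp, array median scaling, the series matrix or no filter on dim probes, 5 rose. With only the arrays compared, 4 rose and 0 fell. In the same order, the genes higher over all genes were 726, 1357, 1330, 1343 (of 30119 tested) and 886, against 1830 in the main fit. In ERt2 minus ko, 4 fell with only the arrays compared, and in RUNX1-ERt2 minus wt 2 did. Over all genes, 4537 and 3827 were lower in those fits, against 4781 and 4323 in the main fit. Tmod1 turned to -0.23 in ko minus wt with normexp. The cause was not tested. Normexp took the median of all genes in ko minus wt to -0.15, and array median scaling took it to 0.25 in ERt2 minus ko and 0.14 in RUNX1-ERt2 minus wt.

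Without 1 array at a time, the counts of genes higher and lower were 5 to 8 and 1 to 5 in ko minus wt, 1 to 12 and 0 to 1 in RUNX1-ERt2 minus ERt2, 5 to 14 and 1 to 3 in ERt2 minus ko, and 11 to 18 and 1 to 1 in RUNX1-ERt2 minus wt. The member medians were -0.34 to 0.11, 0.62 to 1.30, 0.00 to 0.57 and 0.72 to 1.29 in the same order. The count for the difference between slides was 0 to 0. The count lower in ko was 1 without wt replicate 1, wt replicate 2 or ko replicate 1, and 2 without ko replicate 2. Over all genes, 1517, 1456, 1494 and 1630 were lower in those fits, against 2471 with all arrays.

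With the replicate number as a block, ko minus wt had 9 higher and 4 lower, and RUNX1-ERt2 minus wt 15 higher and 1 lower. Over all genes, ko minus wt then had 2218 higher and 2515 lower, and RUNX1-ERt2 minus wt 4154 and 4332. ERt2 minus ko had 11 higher and 1 lower (5353 and 4499 of all genes). It gained Hbb-b1 (adjusted p = 0.0034), Slc4a1 (0.0262), Gypc (0.0379) and Trim10 (0.0422), while Aqp1 was 0.0917. RUNX1-ERt2 minus ERt2 had 11 higher and 1 lower under the block, with Hbb-b1, Hbb-b2 and Cpox gained (adjusted p = 0.00769, 0.0076 and 0.0498). Over all genes, RUNX1-ERt2 minus ERt2 had 1999 higher and 1734 lower under the block, against 1830 and 1588 in the main fit. There the 2 pairs share only a number (same-number correlation -0.190), and with the numbers crossed 8 were higher and 1 lower (2207 and 1994 of all genes).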
